A study of Mus musculus with 27 samples.

Results

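Dendritic cells are the antigen-presenting cells that carry material from tissues to lymph nodes and prime T cells there. The 7 genes described here mark their main classes: Clec9a, Xcr1, Itgae and Batf3 for the conventional type that cross-presents antigen to CD8+ T cells (cDC1), Cd209a for monocyte-derived and cDC2-type cells, Siglech for plasmacytoid cells, and Flt3 for dendritic cells and their progenitors as a class. The genes were chosen by name, with earlier results of these data known. The row of each was found through the gene symbol of its probe set. All 7 were found among 20239 probe sets with 1 gene symbol, and among 21225 probe sets in all.

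RNA of the right lung was measured on Mouse Gene 1.0 ST arrays in 11-week-old female mice of 9 inbred strains, with 3 mice, and 3 arrays, per strain. A/J, C57BL/6J and DBA/2J are labelled as increased in both the severity and the frequency of spontaneous pulmonary adenoma, a benign lung tumour. C3H/HeJ, C57L/J, 129S1/SvlmJ and BALB/cJ are labelled as increased in severity and decreased in frequency, and KK/HlJ and MRL/MpJ as decreased in both. The labels give no treatment, and the tissue is labelled as normal lung, so the class belongs to the strain and not to a tumour in the mouse sampled. Replicates are separate mice of an inbred strain. Samples are listed strain by strain, except MRL/MpJ replicate 3, which comes after BALB/cJ. Run order was not tested, and its effects and those of strain may not be separable.

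Values are log2 signal as deposited, with array medians of 6.24 to 6.37. A log2 difference of 1 is a factor of 2 in signal. Arrays correlated at 0.984 to 0.997 within strains, 26 of 27 lay nearest an array of their own strain, and no 2 arrays held identical values. The arrays labelled C57L/J read H2-Ea at 11.17 ± 0.09 (mean ± SD, n = 3), beside 4.79 to 4.90 in 129S1/SvlmJ, C57BL/6J and KK/HlJ and 10.92 to 11.42 elsewhere, whereas C57L mice are known as carriers of the MHC haplotype b, in which H2-Ea is not transcribed. These arrays are therefore called the arrays labelled C57L/J, and counts are also given without them. C3H/HeJ replicate 2 read 6 skeletal muscle genes at a median of 4.04 and 5 adipocyte genes at a median of 2.18 above the other strains, against 0.05 to 0.24 and -0.01 to 0.33 in its other replicates, and C3H/HeJ results are also given without it.

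In bulk lung RNA, fewer cells of a type and less RNA per cell cannot be told apart. A probe set's signal also depends on how well a strain's sequence matches probes designed on the reference genome, and the part of that match in these differences was not tested. The deposited table holds no detection call. Genes of the Y chromosome, absent from female mice, had strain means of 2.50 to 3.56 for 6 genes and of 4.78 to 5.25 for Sry, a range that takes in the 129S1/SvlmJ levels of Cd209a and Clec9a given below.

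The promoters of the 4 members at the centre of the strain pattern are shown first, since 3 of them (Clec9a, Xcr1 and Flt3) varied together across strains and Cd209a followed an order of its own. Each sequence is 300 bases from RefSeq on build GRCm38.p6, running 5′ to 3′ on the strand of the gene from 250 bases before its annotated start to 50 after. RefSeq's table held 6 of the 7 members, all but Itgae. Capitals mark every GGAA or TTCC, the core that ETS factors such as PU.1 bind, read on either strand, and the longer match described below.
Cd209a, chr8:3748935-3749234, minus strand: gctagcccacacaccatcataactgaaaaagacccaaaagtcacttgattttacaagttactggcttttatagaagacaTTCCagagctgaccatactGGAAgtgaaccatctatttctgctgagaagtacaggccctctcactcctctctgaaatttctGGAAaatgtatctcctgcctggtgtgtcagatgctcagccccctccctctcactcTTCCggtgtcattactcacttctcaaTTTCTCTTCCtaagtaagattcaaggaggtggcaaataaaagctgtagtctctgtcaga
Clec9a, chr6:129408612-129408911, plus strand: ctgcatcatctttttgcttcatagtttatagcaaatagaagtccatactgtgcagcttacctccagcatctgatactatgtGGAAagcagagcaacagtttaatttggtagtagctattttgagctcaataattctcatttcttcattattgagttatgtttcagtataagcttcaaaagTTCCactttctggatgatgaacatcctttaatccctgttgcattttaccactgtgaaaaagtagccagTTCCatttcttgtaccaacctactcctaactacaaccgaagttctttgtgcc
Xcr1, chr9:123861980-123862279, minus strand: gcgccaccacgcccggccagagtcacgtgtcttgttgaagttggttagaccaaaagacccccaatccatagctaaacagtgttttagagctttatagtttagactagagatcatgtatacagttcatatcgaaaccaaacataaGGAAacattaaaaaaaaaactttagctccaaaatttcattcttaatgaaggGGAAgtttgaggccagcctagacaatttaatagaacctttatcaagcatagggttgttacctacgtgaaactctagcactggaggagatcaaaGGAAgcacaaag
Flt3, chr5:147400440-147400739, minus strand: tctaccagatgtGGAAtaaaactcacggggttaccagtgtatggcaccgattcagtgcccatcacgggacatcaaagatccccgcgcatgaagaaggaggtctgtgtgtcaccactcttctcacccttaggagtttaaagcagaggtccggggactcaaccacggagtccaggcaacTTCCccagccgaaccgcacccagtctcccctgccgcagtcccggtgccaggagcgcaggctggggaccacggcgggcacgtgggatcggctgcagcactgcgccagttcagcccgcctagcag

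The ETS core occurred 5 times in the Cd209a window, 3 times in those of Clec9a and Xcr1 and 2 times in that of Flt3, and 96% of 32851 promoters of this length held it at least once. The ETS-IRF composite (GGAA, any 2 bases, then GAAA), a joint site of PU.1 with IRF4 or IRF8, was found once, in Cd209a, as TTTCTCTTCC on the reverse strand across the annotated start, where it takes in 1 of the 5 ETS cores. It is held by 2.72% of promoters. The AP-1 motif TGANTCA, to which BATF3 binds with JUN proteins, the IRF repeat (GAAA, any 2 bases, then GAAA) and the PU.1 motif AGGAAGT, which contains the ETS core, were held by 7.81%, 3.44% and 9.35% of promoters and by none of the 6 members. All motifs were searched on both strands, and a match or its absence describes only the letters in these windows.

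The levels of 6 of the 7 genes differed among the strains by limma's F test at an adjusted p under 0.05, a threshold that 28.9% of the 20239 genes passed. Cd209a spanned a 4.82-fold range of strain means and Clec9a a 4.14-fold range, followed by Xcr1 (2.10-fold), Flt3 (1.93-fold), Itgae (1.86-fold) and Siglech (1.43-fold). Batf3, the AP-1 family factor needed for cDC1 development, spanned 1.24-fold and did not pass. The adjusted p-values of limma's F test were 5.55e-10 for Cd209a, 4.14e-09 for Clec9a, 7.77e-06 for Itgae, 1.09e-05 for Xcr1, 8.46e-05 for Flt3, 0.000681 for Siglech and 0.628 for Batf3. Without the arrays labelled C57L/J the same number of members, 6, passed beside 27% of genes.

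**Figure D1:**
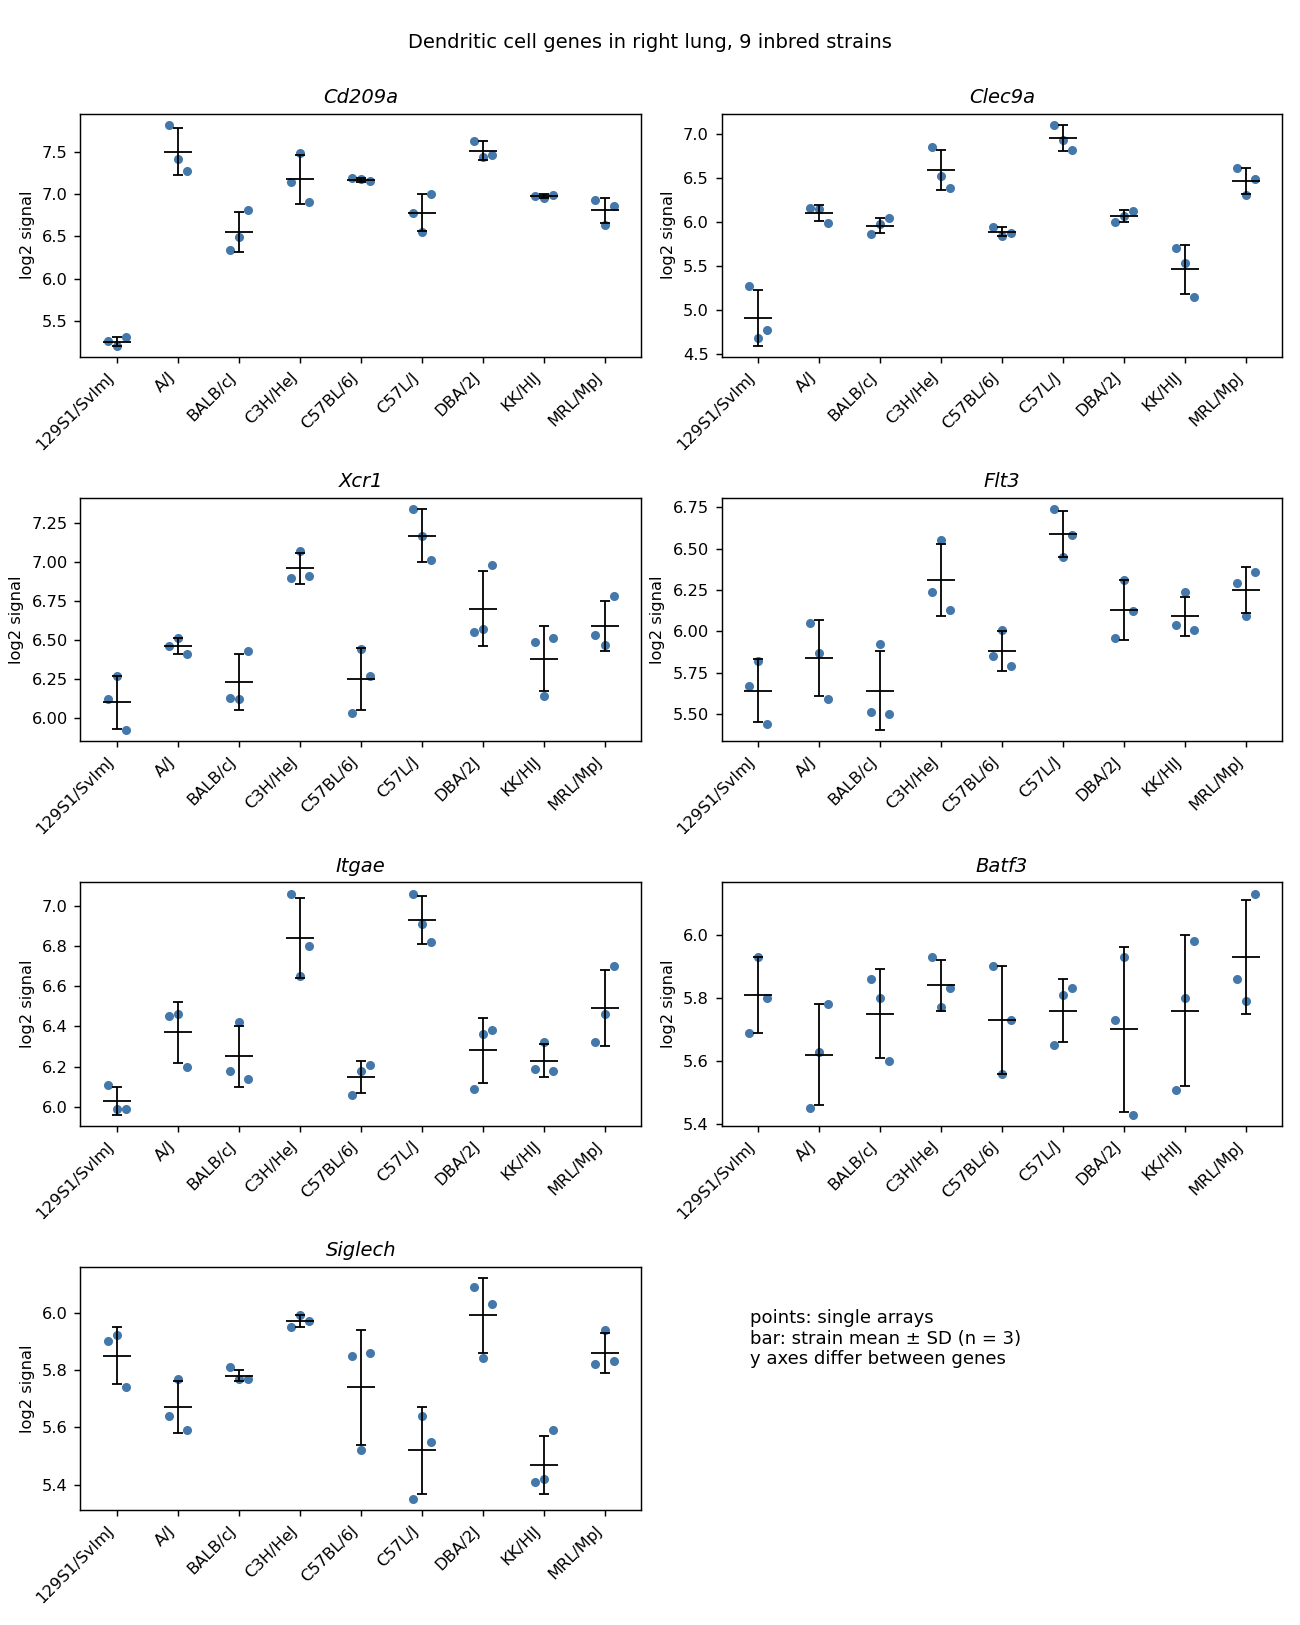
Log2 signal of each dendritic cell gene (y axis, own scale per gene) in the 9 strains (x axis); points are single arrays, bars the strain mean ± SD of 3 mice. Cd209a lies between 5.20 and 5.30 in 129S1/SvlmJ and at 6.34 or above on all other arrays, and the highest strain means of Clec9a, Xcr1, Flt3 and Itgae belong to the arrays labelled C57L/J.

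Cd209a encodes the mouse homologue of the C-type lectin DC-SIGN. It read 5.26, 5.20 and 5.30 in the 3 mice of 129S1/SvlmJ, the lowest strain. BALB/cJ followed at 6.34, 6.49 and 6.81. DBA/2J, at 7.64, 7.45 and 7.47, and A/J, at 7.83, 7.42 and 7.28, stood at the top of the order.

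The 129S1/SvlmJ arrays did not overlap those of any other strain, whose arrays ran from 6.34 to 7.83. Set against the mean of the other 8 strains, Cd209a was lower by 1.81 on the log2 scale in 129S1/SvlmJ (difference -1.81, SE 0.11, limma adjusted p = 3.84e-11), which makes the mean of the others 3.51-fold higher than 129S1/SvlmJ. DBA/2J (0.74, adjusted p = 7.75e-05) and A/J (0.73, adjusted p = 8.35e-05) were higher than the other strains. Between neighbours in the order DBA/2J, A/J, C3H/HeJ, C57BL/6J, KK/HlJ, MRL/MpJ, C57L/J, BALB/cJ, 129S1/SvlmJ, only the last step passed the test, BALB/cJ being 2.46-fold higher than 129S1/SvlmJ (adjusted p = 1.55e-06). In all, 18 of the 36 strain pairs were called for Cd209a, beside 7.31% of all pair tests over all genes.

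The Cd209 genes of the mouse form a family of C-type lectins. Among 6 relatives of Cd209a on the array, 1 rose and 1 fell in 129S1/SvlmJ. Cd209f was the one that fell, by 0.59 on the log2 scale with a strain mean of 4.93. Cd209d was the one that rose, by 0.25 to a mean of 4.77. Cd209b, the homologue called SIGN-R1, differed from the others by 0.03 in 129S1/SvlmJ and was called higher in A/J (0.37) and C3H/HeJ (0.35). All 3 passed the F test among strains (adjusted p of 0.0107 to 0.0166), and their strain means of 4.39 to 5.70 overlapped the range of the Y-linked genes.

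Clec9a encodes DNGR-1, the cDC1 receptor for actin filaments exposed by dead cells. The 129S1/SvlmJ mice read 5.27, 4.68 and 4.77, and those of the next strain, KK/HlJ, 5.70, 5.53 and 5.15. At the top were the arrays labelled C57L/J, at 7.11, 6.94 and 6.82, and C3H/HeJ, at 6.85, 6.53 and 6.39. The lowest arrays came from 129S1/SvlmJ, whose highest array lay above the lowest of KK/HlJ.

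Against the mean of the other 8 strains Clec9a was lower in 129S1/SvlmJ (-1.28, SE 0.11, limma adjusted p = 1.75e-08) and in KK/HlJ (-0.66, SE 0.11, adjusted p = 0.000185). It was higher in the arrays labelled C57L/J (1.03, SE 0.11, adjusted p = 4.92e-07), in C3H/HeJ (0.61, adjusted p = 0.000619) and in MRL/MpJ (0.48, adjusted p = 0.00478). The MRL/MpJ call was lost without MRL/MpJ replicate 1 (adjusted p = 0.0581). With 25 of 36 pairs called, Clec9a had the most pair differences of the 7 genes. Only the lowest step of its order passed the test, KK/HlJ being 1.47-fold higher than 129S1/SvlmJ (adjusted p = 0.0143).

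Clec9a lies in a cluster of C-type lectin genes, and 7 of its neighbours on chromosome 6 were on the array. In 129S1/SvlmJ 3 of them fell and 1 rose, with a median of -0.14, and in the arrays labelled C57L/J 2 rose. Clec12b, an inhibitory lectin gene, was lower in 129S1/SvlmJ (-1.07) and KK/HlJ (-1.47) and higher in the arrays labelled C57L/J (0.67), as Clec9a was, but it was also higher in A/J (1.01), BALB/cJ (0.81) and C57BL/6J (0.65), where Clec9a differed by 0.06, -0.09 and -0.17. Clec7a, which encodes the beta-glucan receptor dectin-1, fell by 0.52 in 129S1/SvlmJ but rose by 0.51 in KK/HlJ. Clec12a, a receptor for uric acid crystals, rose in the arrays labelled C57L/J (0.35) and DBA/2J (0.54). Clec1a had differences of 0.04 in 129S1/SvlmJ and -0.13 in the arrays labelled C57L/J, neither of which passed.

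Xcr1 encodes the chemokine receptor of cDC1 for XCL1, which NK cells and activated CD8+ T cells release. It read 7.34, 7.17 and 7.01 on the arrays labelled C57L/J and 6.90, 7.07 and 6.91 in C3H/HeJ. At the low end stood 129S1/SvlmJ, at 6.12, 6.27 and 5.92, and BALB/cJ, at 6.13, 6.12 and 6.43. The 3 arrays of C3H/HeJ lay above all 3 of 129S1/SvlmJ and BALB/cJ.

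Xcr1 was higher in the arrays labelled C57L/J (0.71, SE 0.10, limma adjusted p = 4.18e-05) and in C3H/HeJ (0.48, adjusted p = 0.00456), and lower in 129S1/SvlmJ (-0.49, adjusted p = 0.00246), each set against the other 8. BALB/cJ (-0.35, adjusted p = 0.0396) and C57BL/6J (-0.33, adjusted p = 0.0451) passed by a narrow margin and lost the call without the arrays labelled C57L/J (adjusted p = 0.165 and 0.143). Each was also lost without single arrays of its own strain. Limma's adjusted p was 0.237 and 0.286 without BALB/cJ replicates 1 and 2, and 0.345 and 0.119 without C57BL/6J replicates 1 and 3. Xcr1 was called in 15 of 36 pairs, none of them between neighbours in the order of its strain means.

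Flt3 is the receptor tyrosine kinase that drives dendritic cell development from progenitors. The arrays labelled C57L/J read 6.74, 6.45 and 6.58. BALB/cJ read 5.51, 5.92 and 5.50, and 129S1/SvlmJ 5.67, 5.82 and 5.44. Every array labelled C57L/J was above every array of these 2 strains. Flt3 was higher in the arrays labelled C57L/J (0.62, SE 0.10, limma adjusted p = 0.000324) and lower in BALB/cJ (-0.45, adjusted p = 0.00965) and 129S1/SvlmJ (-0.45, adjusted p = 0.00658). Each of these lower calls was lost without 1 array of its own strain, with adjusted p-values of 0.111 and 0.109 without BALB/cJ replicates 1 and 3 and of 0.109 without 129S1/SvlmJ replicate 3, an array without which Xcr1 was lost in 129S1/SvlmJ too (adjusted p = 0.0552).

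Itgae encodes the integrin chain CD103, which pairs with the product of Itgb7 and binds E-cadherin, and which cDC1 in lung share with epithelial T cells. It read 7.06, 6.91 and 6.82 on the arrays labelled C57L/J and 7.06, 6.65 and 6.80 in C3H/HeJ, against 6.11, 5.99 and 5.99 in 129S1/SvlmJ. The other 6 strains had means of 6.15 to 6.49. The arrays labelled C57L/J (0.60, SE 0.08, limma adjusted p = 4.16e-05) and C3H/HeJ (0.50, adjusted p = 0.000556) were higher than the other strains and 129S1/SvlmJ (-0.41, adjusted p = 0.00233) was lower. C57BL/6J passed at -0.28 (adjusted p = 0.0449) and not without the arrays labelled C57L/J (adjusted p = 0.148). The C57BL/6J call was also lost without its own replicate 1, 2 or 3 (limma adjusted p = 0.253, 0.145 and 0.0906). As with Xcr1, 15 of 36 pairs were called, and no neighbours in the order passed the test.

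Siglech encodes a sialic acid-binding lectin of plasmacytoid cells that signals through the adaptor Tyrobp, also called DAP12. It read 5.41, 5.42 and 5.59 in KK/HlJ and 5.35, 5.64 and 5.55 on the arrays labelled C57L/J, against 6.09, 5.84 and 6.03 in DBA/2J and 5.95, 5.99 and 5.97 in C3H/HeJ. The low pair and the high pair did not overlap. All Siglech values lay below the array medians of 6.24 to 6.37. Siglech was lower in KK/HlJ (-0.33, SE 0.07, limma adjusted p = 0.00371) and in the arrays labelled C57L/J (-0.28, adjusted p = 0.0159, but 0.256 without replicate 1). DBA/2J (0.25, adjusted p = 0.0358) and C3H/HeJ (0.24, adjusted p = 0.0427) passed narrowly as higher, and neither passed without the arrays labelled C57L/J (adjusted p = 0.0647 and 0.0811). The DBA/2J call was also lost without its own replicate 1 or 3 (limma adjusted p = 0.306 and 0.214). The C3H/HeJ call was lost without its own replicate 1, 2 or 3 (limma adjusted p = 0.0981, 0.177 and 0.102). In 129S1/SvlmJ, where Cd209a and Clec9a were lowest, Siglech read 5.90, 5.92 and 5.74 and differed from the others by 0.10 (adjusted p = 0.423).

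Batf3 had strain means of 5.62 in A/J to 5.93 in MRL/MpJ, and its single arrays ran from 5.43 to 6.13. Values within a strain spread as widely as those between strains, with 5.73, 5.93 and 5.43 in DBA/2J alone. None of its 36 pairs and none of its 9 contrasts passed. All its values lay below the array medians of 6.24 to 6.37, and whether so low a signal could show a difference in RNA was not tested. In 129S1/SvlmJ it differed from the others by 0.05 (SE 0.10) and in the arrays labelled C57L/J by -0.01 (SE 0.10), where Clec9a differed by -1.28 and 1.03.

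Over the 7 members and 9 strains, 26 of 63 contrasts of a strain with the other 8 passed, 14 higher and 12 lower, beside 7.54% of such contrasts over all genes. Among strain pairs 96 of 252 passed beside the 7.31% of all genes, and with a minimum log2 difference of 1 the count was 19 beside 0.655%. Without the arrays labelled C57L/J 18 of 56 contrasts and 61 of 196 pairs passed. The shares of all genes passing contrasts and pairs were not computed for that setting. Members share RNA samples and were chosen with earlier results of these data known, so these counts are descriptive and not of independent events.

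**Figure D2:**
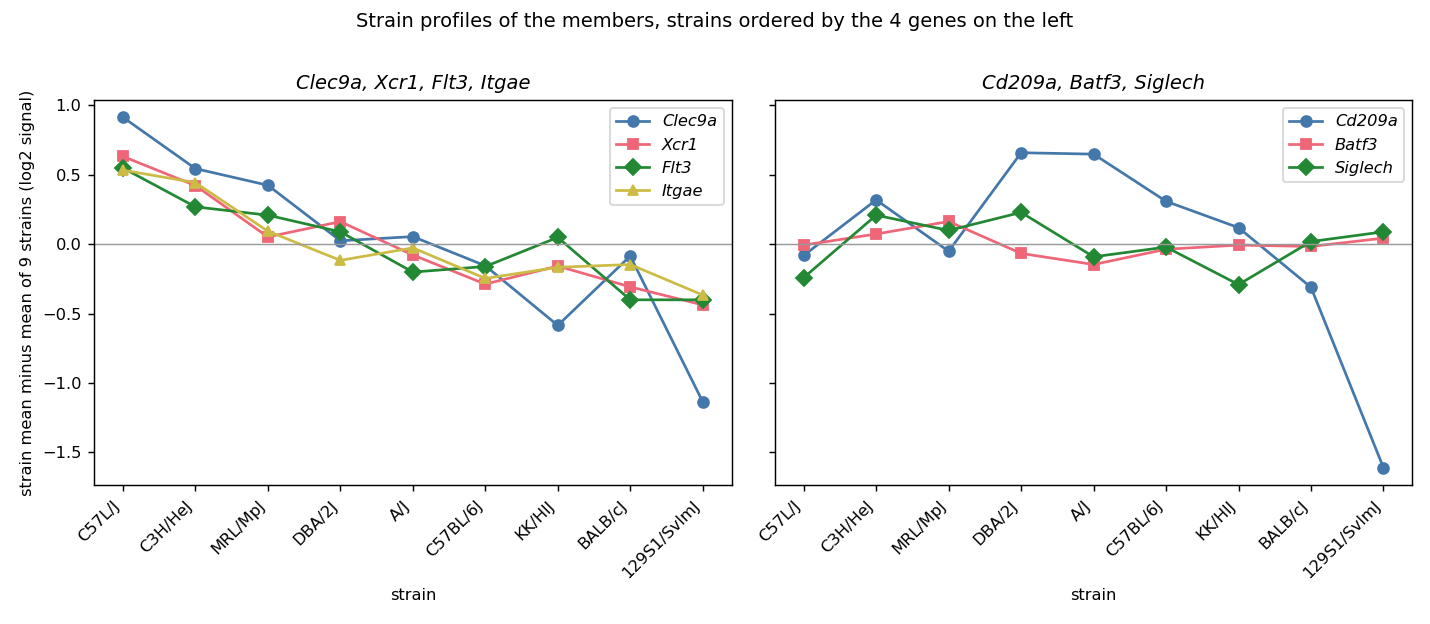
Strain mean minus the mean of the 9 strains, in log2 signal (y axis), with strains along the x axis ordered by the average of the 4 genes of the left panel; lines join the strain means of a gene (n = 3 mice each) as a guide to the eye. Clec9a, Xcr1, Flt3 and Itgae share the same ends of the order, while Cd209a peaks in DBA/2J and A/J and Batf3 stays nearly flat.

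Clec9a, Xcr1, Flt3 and Itgae followed similar orders of strains. Over the 9 strain means Pearson's r was 0.94 for Xcr1 with Itgae (Spearman's rho 0.90), 0.92 for Xcr1 with Flt3 (rho 0.92), 0.89 for Clec9a with Itgae (rho 0.98), 0.86 for Clec9a with Xcr1 (rho 0.88), 0.85 for Flt3 with Itgae (rho 0.77) and 0.77 for Clec9a with Flt3 (rho 0.75). With the 2 strains farthest from the median left out, r stayed between 0.71 and 0.83 for 5 of these pairs and was 0.47 for Clec9a with Flt3. The deviations of single arrays from their strain mean correlated at only 0.10 to 0.42 for the same pairs.

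Cd209a correlated with the 4 genes at r of 0.32 to 0.56 over strain means, and at -0.13 to -0.02 once 129S1/SvlmJ and DBA/2J were left out, so that relation rested on these strains. Siglech correlated with the 4 genes at -0.16 to 0.00 and Batf3 at 0.14 to 0.31 over all 9 strains. Without 129S1/SvlmJ and the arrays labelled C57L/J, these coefficients were 0.38 to 0.79 for Siglech and 0.35 to 0.62 for Batf3, and those among the 4 genes were 0.47 to 0.85, so the separation of Siglech and Batf3 from the 4 genes rested on these strains. These coefficients describe 9 points that share arrays and scaling, and carry no test.

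Of the 3506 other genes that passed the F test with a range of strain means of at least 0.5, Gpr141b, which encodes an orphan receptor, ranked among the 2 most alike in pattern for 4 members over the 27 arrays: r was 0.88 with Xcr1, 0.88 with Itgae, 0.84 with Clec9a and 0.81 with Flt3. Wdfy4, a gene required for cross-presentation by cDC1, was the most alike to Clec9a (r = 0.86 over arrays and 0.90 over strain means). For Itgae the second gene was Gcsam (0.87), for Flt3 the first was Cldn1 (0.85), and for Xcr1 the second was Itgae itself (0.83). Cd209a was most alike to Osbpl3 (0.90) and to H2-Q8 (0.88), an MHC class I gene. Siglech went with H2-T24 (0.72) and Ergic1 (0.71), and Batf3 with Kremen2 (0.76) and Mir9-1 (0.72). Batf3 did not itself pass limma's F test (adjusted p = 0.628), so its coefficients do not describe a shared strain difference.

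129S1/SvlmJ had the largest number of lower members, with 5 of 7 lower and 0 higher beside 6.43% and 3.54% of all genes. The median difference of the 7 members was -0.45, beside -0.01 for all genes. The count of lower members was also 5 without the arrays labelled C57L/J and without C3H/HeJ replicate 2, but it was 3 without 129S1/SvlmJ replicate 3, where Xcr1 and Flt3 lost their calls. The 7 members summed to a linear signal of 343 to 381 per array in 129S1/SvlmJ, against 442 to 741 in the other strains. Among the strain pairs, 28 of 56 with 129S1/SvlmJ were called with it as the lower strain and 2 with it as the higher. Over all genes, 6.16% to 10.3% were called in each pair with 129S1/SvlmJ, in either direction. Shares by direction were not computed for pairs.

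Other dendritic cell genes of 129S1/SvlmJ lay lower too. Of 14 other cDC1 genes 6 fell and 0 rose (median -0.26), of 10 pan-dendritic genes 5 fell and 0 rose (median -0.25), and of 13 genes of mature and migratory cells 3 fell and 0 rose (median -0.14). Wdfy4 fell by 0.86 and Ly75, which encodes the endocytic receptor DEC-205, fell by 0.96. Cd86, a co-stimulatory ligand for T cells, fell by 0.58, Tlr11, a sensor of profilin and flagellin, by 0.32, and Itgax, which encodes CD11c, by 0.30. The strain means of Tlr11 (4.42 to 5.49, with 4.66 in 129S1/SvlmJ) overlapped the range of the Y-linked genes. Of 12 genes of cDC2 and monocyte-derived cells 2 fell and 1 rose, the riser being the lectin gene Mgl2 (0.57).

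Plasmacytoid genes other than Siglech were split, with 4 of 13 lower and 1 higher in 129S1/SvlmJ (median -0.16). Tlr7, the endosomal receptor for single-stranded RNA, fell by 0.46, Bst2, which encodes tetherin, by 0.34 and the phospholipase gene Pld4 by 0.24. Klra17 was called higher (0.72), at a mean of 3.96 within the range of the Y-linked genes. The 14 ligands and partners of the members had 0 genes called either way in 129S1/SvlmJ (median -0.03), among them Flt3l, the growth factor for the receptor Flt3, at 0.22 (adjusted p = 0.0775).

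Markers of several other blood-derived cells were also lower in 129S1/SvlmJ. Of 6 genes of all leukocytes 5 fell (median -0.31), with a summed signal of 2930 to 3340 against 3400 to 4720 in the other strains. Likewise 6 of 8 NK cell genes fell (median -0.60, summed signal 271 to 361 against 256 to 849), 4 of 7 B cell genes (median -0.57, 509 to 679 against 587 to 1310) and 4 of 8 neutrophil genes (median -0.64, 513 to 649 against 549 to 1560). Of 10 T cell genes 1 fell (median -0.03), of 10 interstitial macrophage and monocyte genes 1 fell (median -0.13), and of 9 alveolar macrophage genes 2 rose (median -0.06). Of 7 lung epithelial genes 1 fell (median 0.02). A/J also had 4 of 8 NK cell genes (median -0.65) and 4 of 8 neutrophil genes (median -0.64) lower, with 0 of 7 members lower.

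With each array centred on the mean of the 6 leukocyte genes, which was 0.33 lower in 129S1/SvlmJ than in the other strains, Cd209a (-1.48) and Clec9a (-0.95) kept their calls there. Xcr1 (-0.16, adjusted p = 0.167), Flt3 (-0.12, adjusted p = 0.353) and Itgae (-0.08, adjusted p = 0.47) lost theirs. This centring raises all genes of 129S1/SvlmJ by the same 0.33 on average, and on it Siglech (0.43, adjusted p = 0.00012) and Batf3 (0.38, adjusted p = 0.00678) were called higher in 129S1/SvlmJ, and Batf3 passed the F test among strains (adjusted p = 0.0296). The scaling was chosen after the data were seen.

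**Figure D3:**
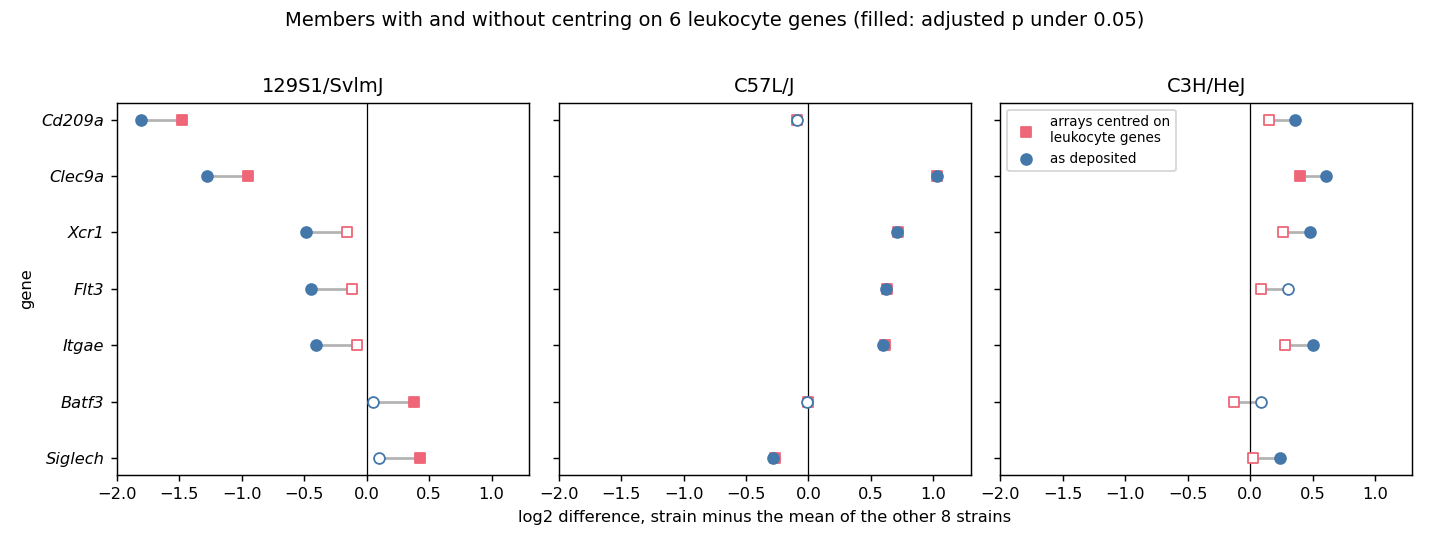
Log2 difference of each member from the mean of the other 8 strains (x axis) in 129S1/SvlmJ, in the arrays labelled C57L/J and in C3H/HeJ; squares are arrays centred on 6 leukocyte genes, circles the deposited values, filled where the adjusted p is under 0.05. Centring moves Xcr1, Flt3 and Itgae of 129S1/SvlmJ to -0.16, -0.12 and -0.08 and leaves the arrays labelled C57L/J almost in place.

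The arrays labelled C57L/J had 4 of 7 members higher and 1 lower, beside 3.69% and 2.94% of all genes. Their median difference was 0.60, beside 0.00 for all genes, and the higher members were Clec9a, Xcr1, Flt3 and Itgae. All 4 calls held after centring on the leukocyte genes, at 1.03, 0.72, 0.63 and 0.61. The members summed to 674 to 741 on these arrays, against 343 to 719 in the other strains. These results rest wholly on arrays whose H2-Ea signal goes against the label.

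Of 14 other cDC1 genes 6 rose and 0 fell on the arrays labelled C57L/J (median 0.17). Cd207, which encodes langerin and is expressed by lung CD103+ dendritic cells, rose by 0.90, Wdfy4 by 0.49 and Naaa, a lipid amidase gene high in cDC1, by 0.35. Genes of mature and migratory cells had 3 of 13 higher and 0 lower (median 0.15): the chemokine gene Ccl22 (0.88), Cd86 (0.50) and Fscn1 (0.34), whose product bundles actin in mature dendritic cells. Flt3l, the ligand of Flt3, was higher as well (0.55, adjusted p = 3.45e-05), with strain means of 8.67 on the arrays labelled C57L/J and 7.78 to 8.37 in the other strains. Itgb7, whose product pairs with CD103, was higher by 0.30.

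The remaining dendritic cell lists had 1 gene that rose on the arrays labelled C57L/J. Of 10 pan-dendritic genes 0 rose and 1 fell, the receptor gene Kit (-0.40), and of 12 genes of cDC2 and monocyte-derived cells 0 rose and 1 fell, the integrin gene Itgam (-0.29). Of 13 plasmacytoid genes Pld4 rose (0.21) and Bst2 fell (-0.41), and Tyrobp, the adaptor for Siglech, fell by 0.51. Among other cell types, 2 of 10 T cell genes rose (median 0.13), 1 of 8 NK cell genes fell (median -0.18), 4 of 9 alveolar macrophage genes fell (median -0.15) and 1 of 6 leukocyte genes fell (median 0.07). The T cell genes, some of whose cells also carry CD103, summed to 602 to 724 on these arrays, against 498 to 704 in the other strains. Their part in the Itgae result was not tested.

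**Figure D4:**
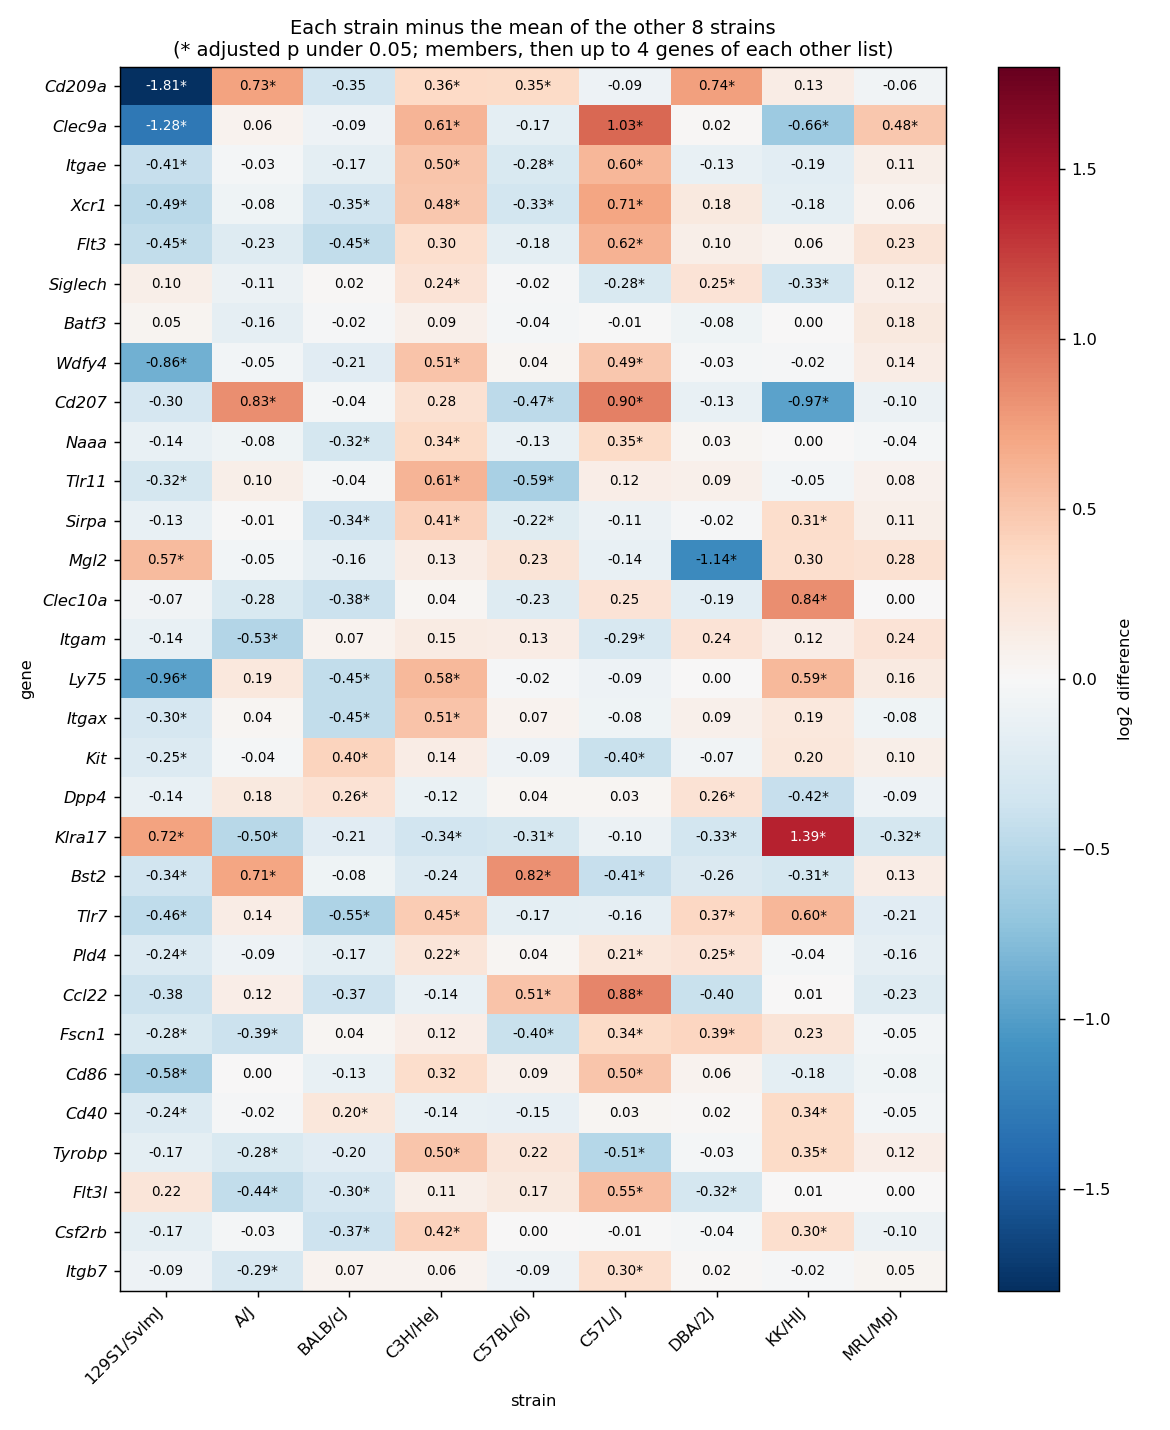
Log2 difference of each strain (x axis) from the mean of the other 8, as colour and number, for the 7 members (top rows) and up to 4 genes with the smallest F test p of 6 other dendritic cell lists; a star marks an adjusted p under 0.05. The columns of 129S1/SvlmJ and of the arrays labelled C57L/J hold the most extreme differences of the members, from -1.81 to 1.03.

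C3H/HeJ had 5 of 7 members higher and 0 lower, beside 4.18% and 3.08% of all genes, with a median of 0.36 beside 0.03 for all genes. Clec9a (0.61), Itgae (0.50) and Xcr1 (0.48) passed clearly, while Cd209a (0.36, adjusted p = 0.0412) and Siglech (0.24, adjusted p = 0.0427) passed narrowly. Without replicate 2, the array with muscle and adipocyte signal, 2 members passed, Clec9a (0.64, adjusted p = 0.00448) and Itgae (0.59, adjusted p = 0.000829), and Xcr1 was at 0.42 (adjusted p = 0.0573). Without the arrays labelled C57L/J 5 members were again higher, with Flt3 (0.38, adjusted p = 0.0356) among them and Siglech no longer.

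Other dendritic cell lists of C3H/HeJ differed in how many genes were called. Of 14 other cDC1 genes 5 rose (Wdfy4 by 0.51, Tlr11 by 0.61), of 10 pan-dendritic genes 4 (Ly75 by 0.58, Itgax by 0.51) and of 12 genes of cDC2 and monocyte-derived cells 2 (Sirpa, an inhibitory receptor gene, by 0.41), with 0 lower in these lists. Of 13 plasmacytoid genes 3 rose and 1 fell, and of 13 genes of mature and migratory cells 0 were called. Without replicate 2 the counts of genes that rose were 4 of 14, 5 of 10 and 1 of 12, then 1 of 13 plasmacytoid and 0 of 13 mature and migratory genes, with 0 lower in each, beside 2.06% and 1.52% of all genes higher and lower.

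Markers of some other cells were also higher in C3H/HeJ, and those of others were not. Of 6 leukocyte genes 2 rose (median 0.15), of 8 NK cell genes 3 rose (median 0.30) and of 9 alveolar macrophage genes 5 rose and 1 fell (median 0.32). Without replicate 2 these counts were 2 of 6, 1 of 8, and 5 higher and 1 lower of 9. Of 10 T cell genes 0 rose (median 0.02) and of 7 B cell genes 0 rose (median -0.05). Of 8 neutrophil genes 1 rose (median -0.04), and of 10 interstitial macrophage and monocyte genes 1 rose (median 0.08). Without replicate 2, 0 genes of these last lists rose. Centred on the leukocyte genes, 1 of the 5 members called in C3H/HeJ was left, Clec9a (0.40, adjusted p = 0.0207). Itgae (0.28, adjusted p = 0.055), Xcr1 (0.26, adjusted p = 0.0679), Cd209a (0.15, adjusted p = 0.274) and Siglech (0.02, adjusted p = 0.799) were no longer called.

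The other 6 strains had 1 to 3 members called each. DBA/2J had 2 higher (Cd209a and Siglech) and 0 lower, beside 2.87% and 1.94% of genes, and A/J had 1 higher (Cd209a) and 0 lower, beside 1.96% and 3.75%. MRL/MpJ had 1 higher (Clec9a) and 0 lower, beside 6.83% and 5.61%. KK/HlJ had 0 higher and 2 lower (Clec9a and Siglech), beside 4.55% and 2.83%, and BALB/cJ had 0 higher and 2 lower (Flt3 and Xcr1), beside 2.48% and 3.01%. C57BL/6J had Cd209a higher (0.35, adjusted p = 0.0422) and Xcr1 and Itgae lower, beside 4.06% and 4.11%, and none of these 3 calls held in every alternative.

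In KK/HlJ, dendritic cell genes were called in both directions. There Clec9a and Siglech were lower, and Cd207 fell by 0.97, while Clec10a, a lectin gene of cDC2, rose by 0.84, Ly75 by 0.59, Tlr7 by 0.60 and Sirpa by 0.31. The strain means of Cd207 (4.08 to 5.74) and Clec10a (4.58 to 5.67) overlapped the range of the Y-linked genes. Of 9 alveolar macrophage genes 5 rose and 0 fell in KK/HlJ (median 0.41), with a summed signal of 7150 to 7210 against 3050 to 6220 in the other strains, and their part in these differences was not tested. In BALB/cJ, Itgax and Ly75 each fell by 0.45 and Tlr7 fell by 0.55, beside a median of -0.62 over 9 alveolar macrophage genes. These cells also carry CD11c, and their part in the BALB/cJ differences was not tested. In DBA/2J, where Cd209a was highest, Mgl2, another lectin gene of monocyte-derived and cDC2-type cells, fell by 1.14.

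**Figure D5:**
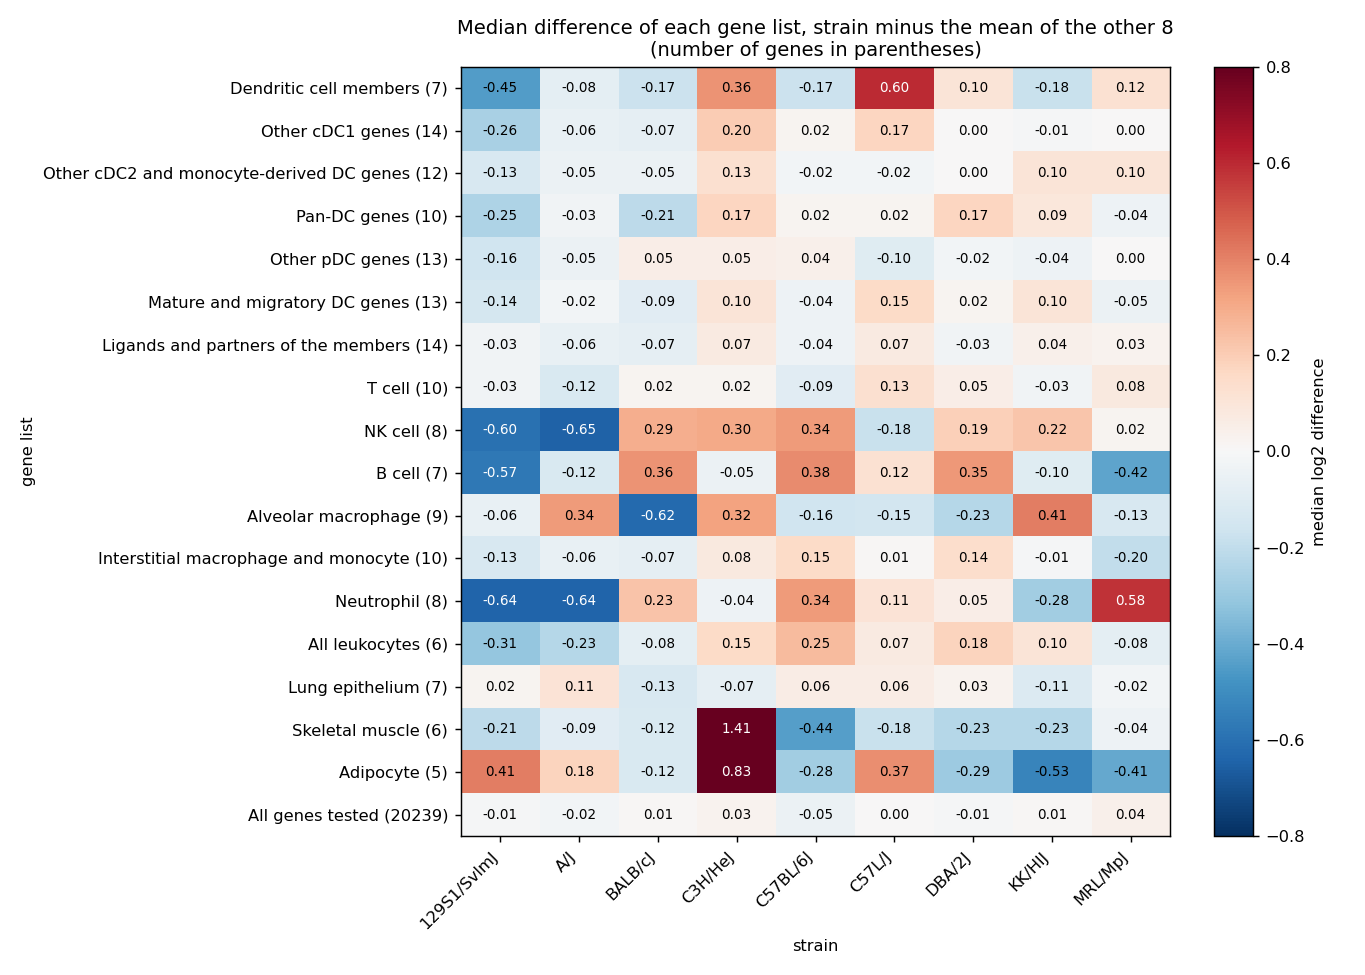
Median log2 difference of each gene list (rows, with the number of genes) in a strain (x axis) from the mean of the other 8, as colour and number. The members are lowest in 129S1/SvlmJ (-0.45), where NK cell, B cell and neutrophil genes are also low, and highest on the arrays labelled C57L/J (0.60), where the leukocyte genes are at 0.07.

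Adenoma classes were compared over strain means, with the strain as the unit. None of the 7 members passed limma's test at an adjusted p under 0.05 for severity, for frequency or for strains increased in both against strains decreased in both, beside 0.00988%, 0% and 0.00494% of all genes. At an unadjusted p under 0.05 there were 0 members for severity and 2 for frequency, beside 7.04% and 7.7% of genes, and 0 for both together, beside 8.62%.

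Cd209a averaged 7.40 ± 0.20 in the 3 strains of increased frequency and 6.59 ± 0.69 in the 6 strains of decreased frequency (SD over strains). The difference was 0.81 (SE 0.35, limma unadjusted p = 0.0444, adjusted p = 0.647), and a two-sided exact permutation test over the 84 splits of the strains gave p = 0.0714, where the smallest it allows is 0.0119. The increased strains ranged from 7.17 to 7.52 and the decreased from 5.25 to 7.18, so the classes overlapped at C57BL/6J and C3H/HeJ. Batf3 averaged 5.68 ± 0.05 in the strains of increased frequency and 5.81 ± 0.07 in those of decreased frequency, without overlap (5.62 to 5.73 against 5.75 to 5.93). Its difference was -0.13 (SE 0.05, limma unadjusted p = 0.0428, adjusted p = 0.647, exact permutation p = 0.0238). Single mice within a strain varied by 0.17 (pooled SD), a spread of mice and not of the strain means compared here.

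The 4 genes that varied together differed by -0.19 to -0.04 between the frequency classes and by -0.17 to 0.10 between the severity classes, with adjusted p-values of 0.782 or more in limma. For severity 7 strains stood against 2, a design in which an exact permutation test cannot go below 0.0278, and for the classes of both, 3 against 2, it cannot go below 0.1. Strains labelled increased in severity included both ends of the Clec9a order, 129S1/SvlmJ at 4.91 and the arrays labelled C57L/J at 6.96.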

How the data were processed

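Right lung RNA of 9 mouse strains, 3 mice each, was hybridised to Mouse Gene 1.0 ST arrays. TRIzol extraction, RNeasy columns, amplification and biotin labelling prepared the RNA, per the labels' protocols. The deposited table holds the authors' log2 signal per probe set. The submitters' processing notes name the affy package, whose version was not given, and the normalization method and genome build are not given in the sources used here. Values were used as deposited, and 986 probe sets without a gene symbol were left out of the tests. The number of arrays limits the precision.

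R 4.3.3 and limma 3.58.1 were used. lmFit with 1 mean per strain and eBayes gave an F test among strains, each strain against the mean of the other 8, and the 36 pairs, with the Benjamini-Hochberg adjustment over 20239 genes within each contrast, at an adjusted p under 0.05 and with no minimum difference. Adenoma classes were fitted on 9 strain means. The fits were run on simulated data with the spread found within strains. The adenoma fits were therefore not tested at the spread between strains.

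The members and gene lists were chosen with earlier results of these data known. All members were named, up to 4 genes per list with the smallest F test p, for each member the 2 genes most correlated over 27 arrays, and genes of the Cd209 family and neighbours of Clec9a. Genes of the other dendritic cell lists are described with values, and the lists of other cell types by counts and medians. Summed signals add 2 to the power of the log2 value over a list. Alternatives were other scalings, filters, priors, weights, a replicate block, other minimum differences and leaving out arrays or strains.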

Additional observations from a re-analysis of the deposited data

Results flagged for a closer look

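Cd209a in 129S1/SvlmJ lay far from the other strains of its adenoma classes. Its strain mean of 5.25 was the lowest of the 7 strains of increased severity, and the gap to the next, BALB/cJ at 6.55, took up 0.572 of the range of those strains, above Dixon's 95% critical value. Among the 6 strains of decreased frequency the same gap took up 0.672 of the range, again above that value. These 2 results come from 1 strain and 1 gap, and they are 2 of 14 groups tested, where chance flags about 1 in 20.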

How the results depend on the processing

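No called value changed sign. The number of members passing the F test was 6 under every alternative except 5 with dim probe sets left out, which removed Batf3 and Siglech, and 7 with centring on the leukocyte genes. Leaving out single arrays gave 6 members, 21 to 26 contrasts and 87 to 97 pairs. A minimum log2 difference of 0.5 left 10 contrasts, and a minimum of 1 left 3 contrasts and 19 pairs. Without the arrays labelled C57L/J, chosen after seeing the data, 61 pairs were called of fewer tested. The 3 adenoma counts were 0 in all alternatives. Of 54 results on single members, 38 kept their side of the threshold in all alternatives. The 54 pool the F tests and the adenoma differences, none of which was called, with the called contrasts of a strain with the others. All calls that were lost were such strain contrasts, so these were less stable than the pooled count. The least stable calls were Itgae and Xcr1 in C57BL/6J, lost in 18 and 17 of 37 alternatives, Siglech in C3H/HeJ, lost in 18 of 36, and Cd209a in C3H/HeJ and C57BL/6J, lost in 12 of 37 each. Their causes were not tested.

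Replicate numbers showed no clear pairing of the samples. The median r of deviations was 0 for arrays of different strains with the same number and 0 for those with different numbers. Of 108 pairs with the same number, 24 correlated above 0.1, a share not computed for different numbers. With the replicate block, 6 members, 21 contrasts and 100 pairs passed and the adenoma counts were 0. The block ended the calls of Cd209a, Xcr1 and Itgae in C57BL/6J (adjusted p = 0.0506, 0.0538 and 0.057) and of Siglech in C3H/HeJ (0.0556) and DBA/2J (0.0501).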
